A study of Mus musculus with 10 samples.

Results

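Transcripts of 10 genes through which branched-chain amino acids and ketones are used were followed in cardiomyocytes, the contractile muscle cells of the heart, from the atria and the ventricles of mice. The genes were Bcat2, Bckdha, Bckdhb, Dbt, Bckdk, Ppm1k, Ivd, Hibch, Bdh1 and Oxct1. They were taken by symbol from a list, and all 10 stood among the 25239 gene symbols measured. Libraries from both chambers came from wild-type (WT) animals and were made from total RNA, with 5 atrial and 5 ventricular libraries numbered as replicates 1 to 5. No treatment is named for either group. No source used here gives the age, sex or strain of the mice, the way the cells were isolated, or whether libraries came from separate animals. The design text asks how gene expression compares between these cell types. Values are normalized reads, the read count of a gene divided by the size factor of its library.

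The branched-chain amino acids leucine, isoleucine and valine are essential amino acids that muscle can burn in its mitochondria. A transaminase first removes their amino group, and the branched-chain ketoacid dehydrogenase complex then commits the carbon skeletons to oxidation. That complex is switched off by a dedicated kinase and switched on by a dedicated phosphatase, and separate enzymes afterwards carry each skeleton toward acetyl-CoA or succinyl-CoA. Ketone bodies made by the liver enter the same mitochondria, where they are oxidized and activated to acetyl-CoA, and the heart is among the organs that use them most.

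The libraries fell into a pair of sets that the labels do not mention. Replicates 1 and 2 of both chambers held 1790402 to 4445287 reads each, of which Rn45s, the precursor of ribosomal RNA, took 0.215% to 0.480%. Replicates 3 to 5 of both chambers held 11163805 to 12842635 reads, with 23.1% to 29.8% in Rn45s, so values are given for each set apart as well as together. Replicate 1 stood apart again, with 21576 (atrial) and 19232 (ventricular) genes above 0 against 15950 to 16618 in every other library. Ventricular replicate 1 also had the fewest reads. The sets do not separate replicate 1 from replicate 2. Chamber markers followed the labels, since 4 of 4 atrial markers (Myl7, Myl4, Nppa and Sln) were higher in atrial cells and 4 of 4 ventricular markers (Myl2, Myl3, Irx4 and Hey2) were lower in them, and none of 5 markers shared by all cardiomyocytes passed the test. With the replicate number as a block, 2 of these 5 were lower in atrial cells, Tnnt2 (-0.48, limma, adjusted p = 9.06e-04) and Actn2 (-0.34, adjusted p = 0.0166). RNA of other cell types was present. The summed level of 4 epicardial markers was 2061 to 4996 normalized reads in atrial and 266 to 1290.4 in ventricular libraries, and all 4 were called. That of 4 smooth muscle markers was 1038 to 6189 and 7764 to 15002, with 2 of 4 lower in atrial cells (Myh11 and Acta2), and that of 6 fibroblast markers was 13696 to 32757 and 5626 to 48379, with 1 of 6 lower (Pdgfra). The smooth muscle marker Cnn1 went the other way, at 4.02 times the ventricular mean in atrial cells and higher in 5 of 5 pairs (limma, adjusted p = 0.0696; 1.00e-04 with the block). Of 5 endothelial markers only Kdr was called (higher in atrial cells, limma, adjusted p = 0.0293). Tie1 (0.74) and Emcn (0.83) had the same sign, and Pecam1 (-0.48) and Cdh5 (-0.87) the other. In replicates 3 to 5 alone Kdr was higher in atrial cells, and Pecam1 and Cdh5 were lower (limma, adjusted p = 7.16e-07, 0.00118 and 3.28e-06). Of 2 macrophage markers tested, Csf1r was higher in atrial cells (limma, adjusted p = 1.53e-04) and Cd68 was not called (0.754). The part of these cells in the differences below was not tested. In such bulk libraries, fewer cells of a type and less RNA per cell cannot be told apart.

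Between chambers, 3 of the 10 genes were lower in atrial than in ventricular cardiomyocytes and none was higher. These were Dbt and Bckdhb, which encode a pair of subunits of the branched-chain ketoacid dehydrogenase complex, and Hibch, an enzyme of valine breakdown. All 10 genes passed the filter of a mean of at least 10 normalized reads, as did 12422 genes in all, and differences were tested with limma on log2(normalized reads + 1), with adjustment of p over these 12422 genes and a threshold of 0.05. The background was 6.56% of tested genes called lower in atrial cells and 8.12% called higher. The median log2 difference, atrial minus ventricular, was -0.34 over the 10 genes and -0.01 over all tested genes, and 8 of the 10 estimates were below 0. The values of the chambers did not overlap for 4 genes (Bcat2, Bckdhb, Dbt and Hibch), against 14.4% of tested genes. The count test of edgeR on the recovered whole reads called the same 3 genes, with a background of 7.29% lower in atrial cells. With the replicate number as a block, 5 of the 10 were called lower, Bcat2 and Oxct1 being added, where the background was 16.0%. The same 3 genes were called when any 1 of the 10 libraries was left out.

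**Figure D1:**
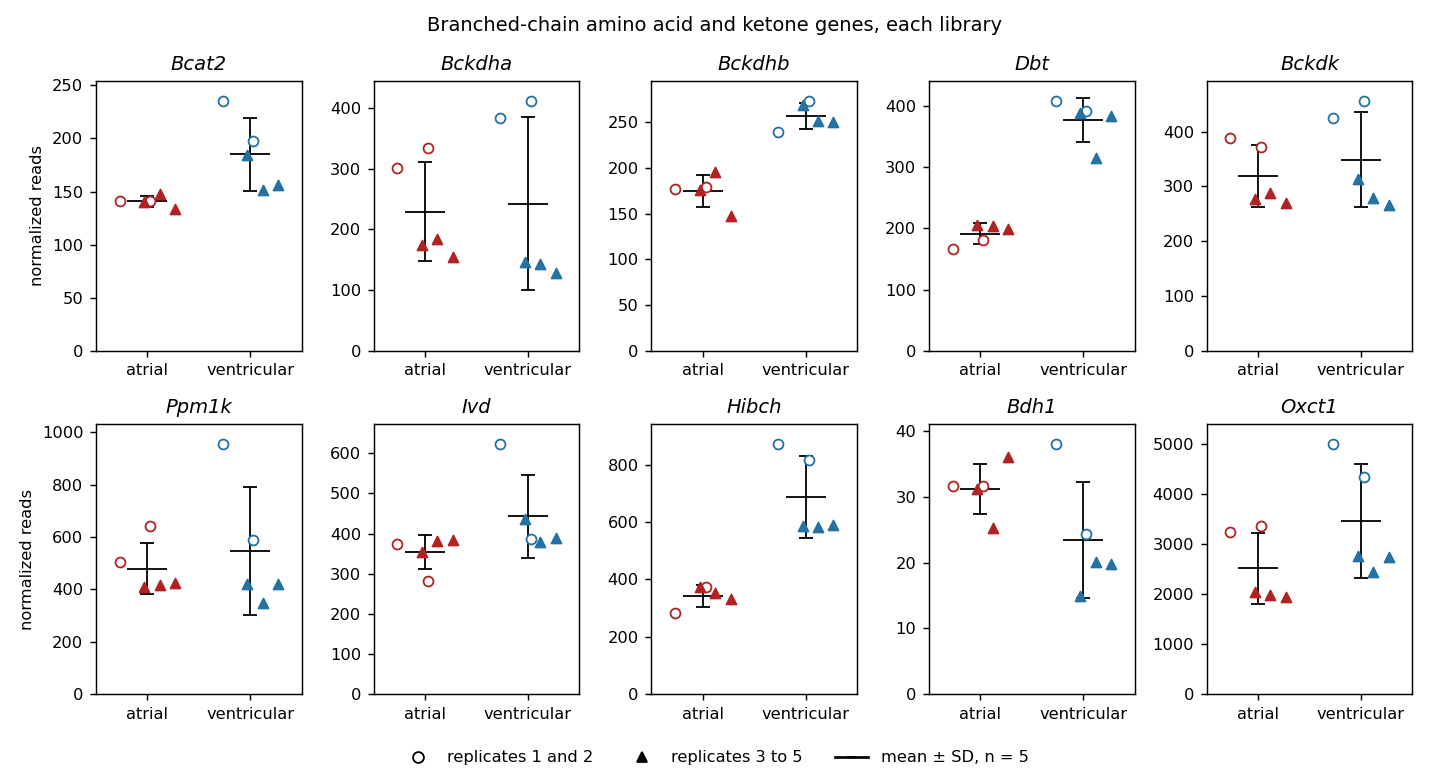
Normalized reads (vertical axes, from 0) of the 10 genes in each atrial and ventricular library, with replicates 1 and 2 as open circles, replicates 3 to 5 as filled triangles, and the mean ± SD of 5 libraries in black. The atrial and ventricular points are separate for Bcat2, Bckdhb, Dbt and Hibch, and replicates 1 and 2 lie above replicates 3 to 5 in both chambers for Bckdha, Bckdk, Ppm1k and Oxct1.

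Bcat2 encodes the mitochondrial branched-chain aminotransferase, which takes the amino group from all 3 amino acids. Atrial replicates 1 to 5 had 141, 141, 140.3, 148 and 133 normalized reads, and ventricular replicates 1 to 5 had 235, 197, 185, 152 and 156. Every atrial value lay below every ventricular one, by a narrow margin in replicates 3 to 5. The means were 141 ± 5.23 and 185 ± 34.1 (SD, n = 5), a log2 difference of -0.37 ± 0.14 (SE) that did not pass the test (limma, adjusted p = 0.0974; 0.0354 with the replicate block). The highest ventricular values came from replicates 1 and 2.

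The branched-chain ketoacid dehydrogenase complex is built from a decarboxylase made of alpha and beta chains (Bckdha and Bckdhb), a transacylase core (Dbt) and a dihydrolipoyl dehydrogenase that it shares with the pyruvate complex (Dld). Of the 3 chains particular to the complex, the core was the most different between chambers. Dbt (ENSMUSG00000000340, chromosome 3, 116513070 to 116549981, GRCm38) had 167, 181, 206, 205 and 199 normalized reads in atrial replicates 1 to 5, and 408, 392, 389, 315 and 384 in the ventricular ones. The groups were well apart in both library sets, and the lowest ventricular library, replicate 4, still exceeded the highest atrial one. Its means were 192 ± 17.0 and 378 ± 36.0 (SD, n = 5), with 1.97 times the atrial level in ventricular cells. The log2 difference of -0.97 ± 0.11 passed the test (limma, adjusted p = 2.04e-04), and the atrial value was the lower one in 5 of 5 pairs of equal replicate number. Of all tested genes, 4.30% had a log2 difference as low as or lower than that of Dbt.

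Bckdhb, the beta chain of the decarboxylase (ENSMUSG00000032263, chromosome 9, 83925145 to 84124240), changed less than Dbt. Its atrial values were 177, 178, 176, 195 and 147 normalized reads, and its ventricular values 239, 273, 269, 251 and 249.6, in the order of the replicate numbers. The groups did not overlap, and the level was alike in both library sets, with means of 217 for replicates 1 and 2 and 215 for replicates 3 to 5. The ventricular mean of 256 ± 14.3 was 1.47 times the atrial mean of 175 ± 17.2 (SD, n = 5), and the log2 difference was -0.55 ± 0.11 (limma, adjusted p = 0.00481; lower in 5 of 5 pairs). When libraries were scaled to equal totals the difference was -0.49 and passed the test no longer (adjusted p = 0.0720). With totals scaled without Rn45s and Lars2 it was -0.50 and did pass (limma, adjusted p = 0.0184).

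Bckdha, the alpha chain that carries the phosphorylation sites through which the complex is switched off, did not follow its partner. It had 301, 334, 174, 185 and 154 normalized reads in the atrial libraries and 384, 412, 146, 142 and 128.5 in the ventricular ones. The library sets were farther apart than the chambers, with 301 to 412 for replicates 1 and 2 against 128.5 to 185 in replicates 3 to 5, a ratio of means of 2.31. The atrial values were the lower ones in replicates 1 and 2 and the higher ones in replicates 3 to 5. Over all 10 libraries the log2 difference was 0.05 ± 0.38 (limma, adjusted p = 0.968), and its sign was turned by edgeR (-0.05), by DESeq2 (-0.07) and by leaving out any of atrial replicates 1 and 2 and ventricular replicates 3, 4 and 5 (-0.13 to -0.07). Within replicates 3 to 5 it was 0.29 ± 0.09 (limma, adjusted p = 0.00821), and that call was lost without atrial replicate 4 (adjusted p = 0.0680) or ventricular replicate 5 (0.0543). In the GENCODE annotation, 61.7% of the exonic bases of Bckdha are shared with B3gnt8, a gene on the opposite strand, and no source used here gives the strand setting of the counting, so reads of this pair may not be told apart. B3gnt8 stood at 4.72 to 13.6 normalized reads in the 10 libraries.

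Set against each other within a library, the alpha and beta chains gave a log2 ratio that shifted with both library set and chamber. On the scale of normalized reads per kilobase of exon, the log2 ratio of Bckdha over Bckdhb was 0.69 and 0.83 in atrial replicates 1 and 2, and 0.61 and 0.52 in ventricular replicates 1 and 2. For replicates 3 to 5 it was -0.09, -0.15 and -0.01 in atrial cells and -0.96, -0.89 and -1.03 in ventricular cells. The ratio was higher in atrial cells in every same-numbered pair, narrowly so in replicate 1 and by the most in replicates 3 to 5. The ratios are described without a test, since the pairs of genes were chosen among the 10. Since reads of Bckdha and B3gnt8 may not be told apart, the level of the Bckdha over Bckdhb ratio is uncertain.

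The kinase and the phosphatase of the complex did not pass the test between chambers. Bckdk encodes the kinase that phosphorylates the alpha chain and so inhibits the complex. It had 388, 371, 278, 288 and 269.7 normalized reads in atrial and 426, 456, 314, 279 and 267 in ventricular libraries, and the groups overlapped. The log2 difference was -0.11 ± 0.18 (limma, adjusted p = 0.809; 0.326 with the replicate block). Ppm1k encodes the mitochondrial phosphatase that removes that phosphate and activates the complex. It stood at 503, 641, 409, 415 and 425 in atrial and at 955, 589.9, 422, 349 and 422 in ventricular libraries, where ventricular replicate 1 was far above the other ventricular libraries. Its difference of -0.12 ± 0.26 (limma, adjusted p = 0.861) became 0.11 without ventricular replicate 1 and 0.08 without replicate 1 of both chambers.

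Per kilobase of exon, the log2 ratio of Bckdk over Ppm1k was 0.33, -0.08, 0.15, 0.18 and 0.05 in atrial replicates 1 to 5, and -0.46, 0.33, 0.28, 0.38 and 0.04 in ventricular replicates 1 to 5. The groups overlapped almost fully, and the lowest value came from ventricular replicate 1. The ratio of the kinase to the core it binds was different. For Bckdk over Dbt, a pair chosen after the values had been seen, the log2 ratio was 1.07, 0.89, 0.29, 0.35 and 0.30 in atrial and -0.08, 0.07, -0.45, -0.32 and -0.67 in ventricular libraries. All 5 atrial values lay above all 5 ventricular ones, with means of 0.58 ± 0.37 and -0.29 ± 0.29 (SD, n = 5).

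**Figure D2:**
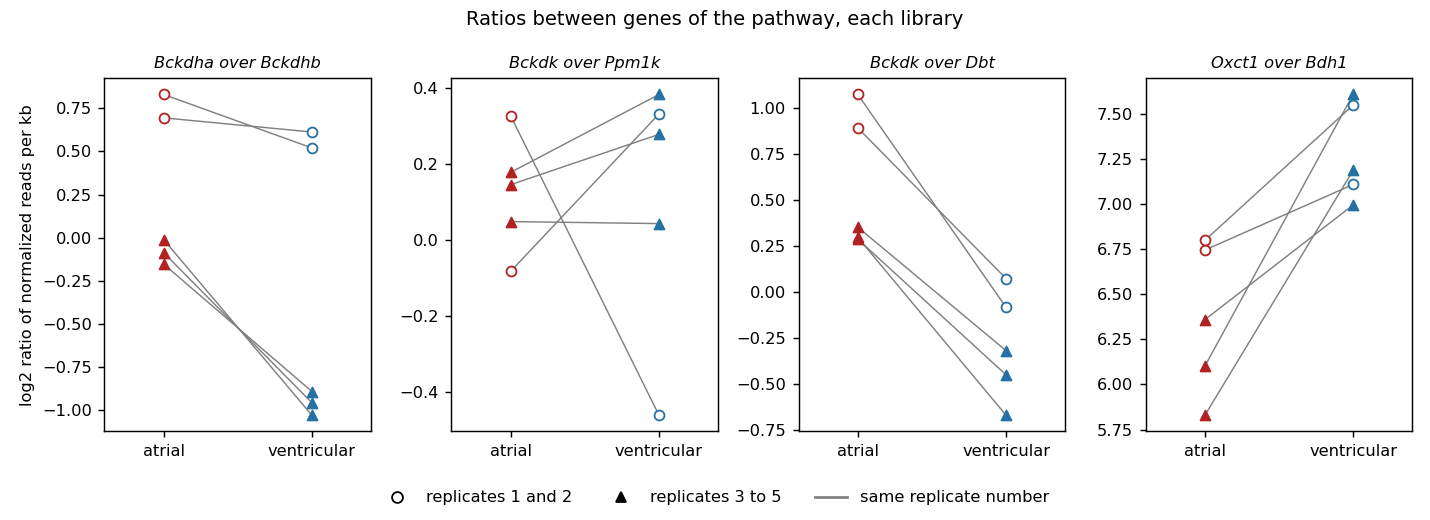
Log2 ratios of normalized reads per kilobase of exon (vertical axes, which do not start at 0) in each atrial and ventricular library, with lines joining libraries of the same replicate number. Bckdk over Ppm1k overlaps between chambers, Bckdk over Dbt and Oxct1 over Bdh1 do not, and Bckdha over Bckdhb is lower in replicates 3 to 5 than in replicates 1 and 2 in both chambers.

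Beyond the dehydrogenase complex the enzymes differ for each amino acid. Hibch of valine breakdown passed the test and Ivd of leucine breakdown did not, but both had lower estimates in atrial cells. Whether their differences were unequal was not tested, and these genes do not stand for their branches. Ivd encodes isovaleryl-CoA dehydrogenase, the next enzyme for leucine. It had 374, 282, 354, 380.3 and 384 normalized reads in atrial and 623, 388, 435, 379.6 and 389 in ventricular libraries. The groups overlapped, and ventricular replicate 1 stood well above the rest. Its log2 difference of -0.30 ± 0.16 did not pass the test (limma, adjusted p = 0.267; 0.0782 with the replicate block).

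Hibch encodes 3-hydroxyisobutyryl-CoA hydrolase, which frees 3-hydroxyisobutyrate in valine breakdown (ENSMUSG00000041426, chromosome 1, 52844929 to 52920986). Atrial replicates 1 to 5 had 281, 374, 373, 353 and 331 normalized reads, and ventricular replicates 1 to 5 had 872, 817, 587, 581 and 589. The groups were far apart, and in ventricular cells replicates 1 and 2 stood above replicates 3 to 5 while in atrial cells the sets overlapped. The ventricular mean of 689 ± 143 was 2.01 times the atrial mean of 342 ± 38.4 (SD, n = 5), and the log2 difference was -0.99 ± 0.15 (limma, adjusted p = 0.00129; lower in 5 of 5 pairs). A log2 difference as low as this or lower was found for 4.17% of tested genes. The profile of Hibch over the 10 libraries followed that of Dbt, with a Pearson r of 0.95 on the log2 scale, which both the chamber and the library set enter.

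Promoter stretches are shown for 2 genes that were lower in atrial cells (Hibch and Bckdhb) and for the kinase and the phosphatase, which did not pass the test. RefSeq windows on GRCm38.p6, with 250 bases before the annotated start, matched 9 of the 10 genes in 12 windows. Dbt had no window, so the counts below leave it out. The stretches printed are those outside any GENCODE exon. They are chr1:52844788-52844928 for Hibch, chr9:83925023-83925136 for Bckdhb and chr7:127903823-127904072 for Bckdk, all on the plus strand, and chr6:57535488-57535737 for Ppm1k, on the minus strand. Each is written 5′ to 3′ in lower case, and capitals mark 4 motifs on either strand: the GC box, spelled GGGCGG, the CCAAT box, the TATA box, spelled TATAAA, and the nuclear receptor motif, spelled AGGTCA.
Hibch: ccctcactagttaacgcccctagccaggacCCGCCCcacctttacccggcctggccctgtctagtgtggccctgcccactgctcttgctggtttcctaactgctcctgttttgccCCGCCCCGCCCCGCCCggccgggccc
Bckdhb: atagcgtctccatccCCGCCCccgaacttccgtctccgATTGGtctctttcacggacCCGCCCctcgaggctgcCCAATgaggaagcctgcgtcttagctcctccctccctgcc
Bckdk: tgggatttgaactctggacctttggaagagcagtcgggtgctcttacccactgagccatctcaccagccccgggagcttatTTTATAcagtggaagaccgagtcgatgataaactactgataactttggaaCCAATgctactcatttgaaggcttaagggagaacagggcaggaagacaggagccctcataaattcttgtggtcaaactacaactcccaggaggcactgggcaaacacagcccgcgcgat
Ppm1k: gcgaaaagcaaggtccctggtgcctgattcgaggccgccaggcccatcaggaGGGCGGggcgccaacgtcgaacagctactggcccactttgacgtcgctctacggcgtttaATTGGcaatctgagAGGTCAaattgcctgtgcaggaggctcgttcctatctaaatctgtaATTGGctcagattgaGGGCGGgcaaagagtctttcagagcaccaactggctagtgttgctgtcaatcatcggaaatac
In the full 250 bases, Hibch held 5 GC boxes, 4 of them in the stretch printed, and no CCAAT. Bckdhb, in the first of its 2 windows, held 3 GC boxes, 2 of them in the stretch printed, and 2 CCAAT sequences. Ppm1k held 2 of each, and Bckdk had no GC box, 1 CCAAT and 1 TATAAA. Over 32851 promoter windows of the same table, 32.7% held GGGCGG and 33.8% CCAAT, and these were found in 3 and 4 of the 9 genes. Here and below the shares are per window, while a gene was counted if any of its windows held the sequence. The shares and the counts are thus unlike measures. The second window of Bckdhb, at another annotated start, held none of the sequences searched. The sequence TNAAGGTCA, a form of the element bound by estrogen-related receptors that contains AGGTCA, was in 0 of the 9 genes and in 1.14% of all windows. AGGTCA alone was in 2 of the 9 (Bckdhb, outside the stretch printed, and Ppm1k) and in 14% of all windows. A match is a description of letters and not of binding.

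Ketone use rests on Bdh1, which oxidizes 3-hydroxybutyrate to acetoacetate, and on Oxct1 (SCOT), which activates acetoacetate with CoA from succinyl-CoA. The level of Oxct1 was the highest of the 10 genes and that of Bdh1 the lowest. Oxct1 had 3238, 3357, 2042, 1981 and 1950.1 normalized reads in atrial and 4999.5, 4343, 2761, 2434 and 2742 in ventricular libraries. Within each library set every atrial value lay below every ventricular one, but the groups overlapped over both sets because replicates 1 and 2 were higher in both chambers. The means were 2514 ± 718 and 3456 ± 1141 (SD, n = 5), and the log2 difference was -0.44 ± 0.25, which did not pass the test across all libraries (limma, adjusted p = 0.307). With the replicate block the same difference had an SE of 0.07 and was called (limma, adjusted p = 0.00143; lower in 5 of 5 pairs), and with library set as a term it was called too (adjusted p = 3.09e-04).

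Bdh1 went the other way in replicates 3 to 5. It had 31.7, 31.7, 31.2, 25.4 and 36.0 normalized reads in atrial and 38.1, 24.4, 14.9, 20.0 and 19.8 in ventricular libraries, from 10 to 56 reads each. The groups overlapped through ventricular replicate 1, which held the highest value of all from 11 reads. The log2 difference was 0.46 ± 0.25 over 10 libraries (limma, adjusted p = 0.290; 0.163 with the replicate block), and 0.73 ± 0.20 within replicates 3 to 5 (adjusted p = 0.00354), where atrial cells had 1.69 times the ventricular mean. That call was lost when no filter on low values was set (limma, adjusted p = 0.0651). The log2 ratio of Oxct1 over Bdh1, per kilobase of exon, was 5.83 to 6.80 in atrial and 7.00 to 7.61 in ventricular libraries and did not overlap. Smaller shares of the exonic bases of Bcat2 (15.9%), Bdh1 (13.7%) and Oxct1 (12.6%) are shared with 0610005C13Rik, Gm15743 and BC037032 on the opposite strand. For Oxct1 that neighbour stood at 5.76 to 23.4 normalized reads, and for Bdh1 at 0 to 4.14.

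Compared per kilobase of exon, the levels of the 10 genes had nearly the same order at both ends in the chambers. Oxct1 came first in both, with 679 ± 194 normalized reads per kilobase for the atria and 934 ± 308 for the ventricles (SD, n = 5), and no other gene reached its range. Bcat2 with 36.1 ± 1.34 and 47.4 ± 8.74, then Bdh1 with 8.03 ± 0.98 and 6.02 ± 2.28, came last, each apart from its neighbours. Between these ends each gene overlapped the next in the order. In atrial cells the order ran from Bckdha (121 ± 43.1) through Bckdhb, Bckdk, Ppm1k and Ivd to Dbt (57.2 ± 5.07) and Hibch (56.5 ± 6.33). In ventricular cells it ran from Bckdhb (142 ± 7.92) through Bckdha, Hibch (114 ± 23.6), Dbt (113 ± 10.8), Bckdk and Ppm1k to Ivd (80.4 ± 18.7). Exonic length was the union of all GENCODE exons of a gene, which need not be the transcript present in these cells. For Bckdha, 61.7% of that length is shared with B3gnt8 on the opposite strand, so its level per kilobase and its place in the order are uncertain.

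**Figure D3:**
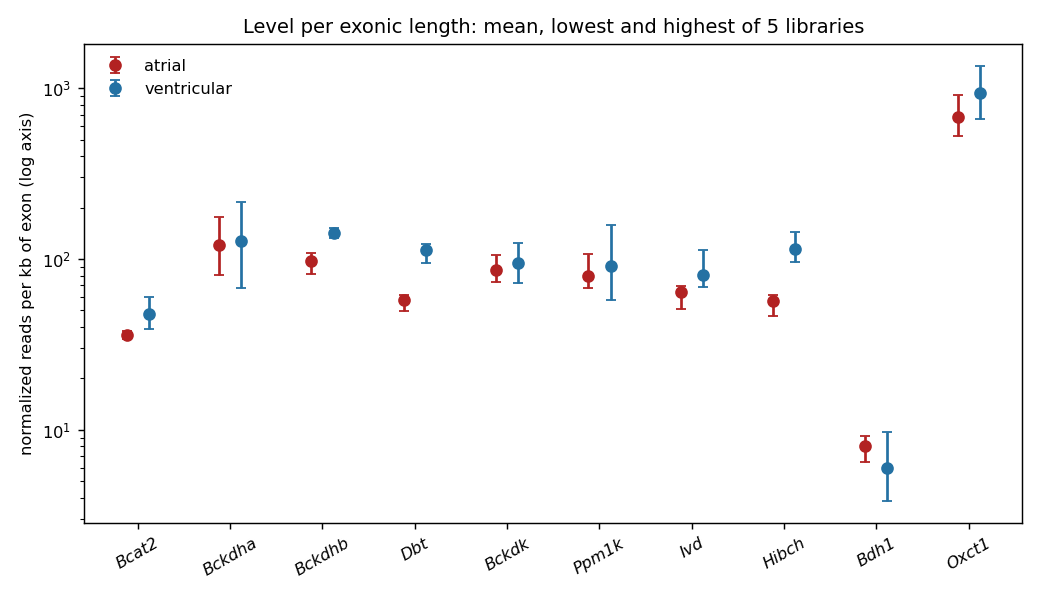
Mean level of each gene in normalized reads per kilobase of exon (vertical log axis) in atrial and ventricular cells, with bars from the lowest to the highest of 5 libraries. Oxct1 lies above and Bdh1 below all others in both chambers, and Bcat2, Bckdhb, Dbt and Hibch show no overlap between chambers.

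Each library set held both chambers, so the chambers were also compared within a set. In replicates 1 and 2 alone, Dbt (-1.20 ± 0.22, limma, adjusted p = 0.0161) and Hibch (-1.38 ± 0.21, adjusted p = 0.00841) were called lower in atrial cells, 2 of 10 where the background was 2.04%. That set had 4 libraries, and the 2 calls fell to 0 without ventricular replicate 1 (0.0955 for Dbt and 0.0511 for Hibch) and to 1 without ventricular replicate 2, Dbt being lost (0.0799). Either step leaves a single ventricular library, assumed to vary like the atrial pair, and without ventricular replicate 1 the differences were -1.17 and -1.33. With the replicate block this set gave 5 genes lower in atrial cells, Bcat2, Dbt, Ivd, Hibch and Oxct1, where the background was 9.16%, from a fit with 1 residual degree of freedom. In replicates 3 to 5 alone, 5 genes were called lower in atrial cells and 2 higher, where the background was 26.6% lower and 26.2% higher. The 5 were Bcat2 (-0.22 ± 0.09), Bckdhb (-0.58 ± 0.09), Dbt (-0.83 ± 0.08), Hibch (-0.73 ± 0.06) and Oxct1 (-0.41 ± 0.06), and the 2 were Bckdha and Bdh1, with the values given above. Bcat2 was at the edge of the threshold (limma, adjusted p = 0.0495), which it missed without atrial replicate 3, 4 or 5 or ventricular replicate 3 or 5 (adjusted p = 0.0528 to 0.273).

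No gene of the 10 had a chamber difference that was itself called unequal between the sets (limma interaction term, background 5.21%), while 3 had an unadjusted p under 0.05. The nearest were Hibch, with -0.64 ± 0.17 between the differences of the sets (limma, adjusted p = 0.0560), and Bckdha, with -0.62 ± 0.17 (adjusted p = 0.0627). Without atrial replicate 2 both were called (-0.85 and -0.70), and without ventricular replicate 2 Ppm1k, Ivd and Hibch were (-0.82, -0.83 and -0.69). The level itself differed between sets for some genes. The 4 libraries of replicates 1 and 2 did not overlap the 6 of replicates 3 to 5 for 4 of the 10 genes, Bckdha, Bckdk, Ppm1k and Oxct1, against 30.3% of tested genes. All 4 were higher in replicates 1 and 2, with ratios of means of 2.31, 1.45, 1.65 and 1.72.

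**Figure D4:**
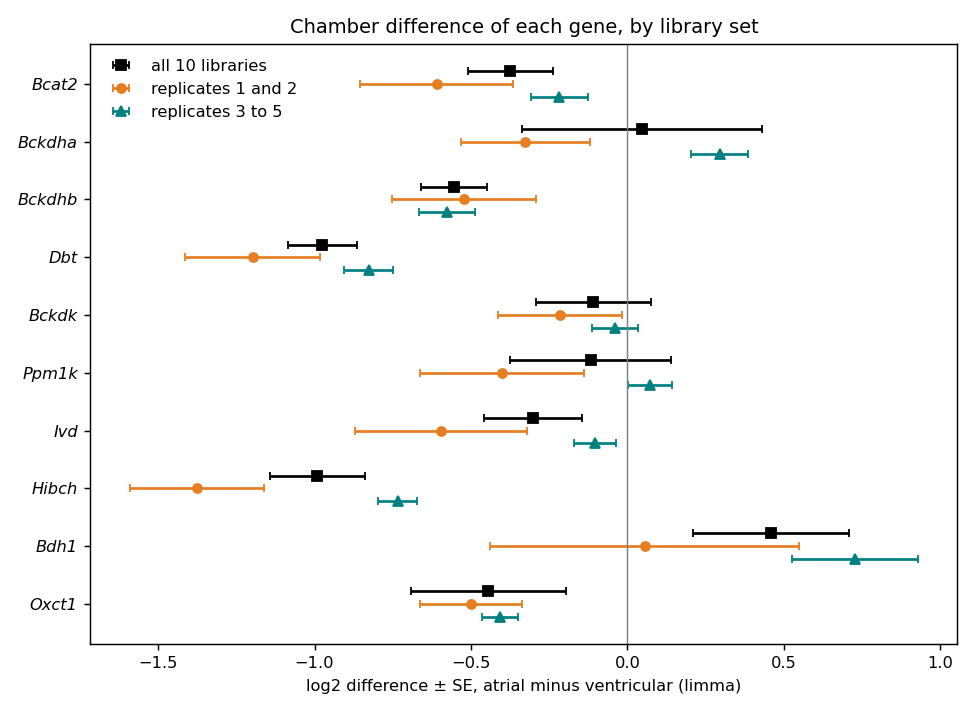
Log2 difference ± SE (horizontal axis, atrial minus ventricular, limma) of each gene over all 10 libraries, within replicates 1 and 2 and within replicates 3 to 5. The estimates of 7 genes lie left of 0 in all 3 fits, those of Bckdha and Ppm1k lie on both sides of 0, and those of Bdh1 lie right of 0.

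The rest of these pathways was described by 30 further genes, of which 27 were tested. Of these 5 were lower and 1 was higher in atrial cells, with a median log2 difference of -0.19 beside -0.01 over all tested genes and, as given above, 6.56% called lower and 8.12% called higher. With the replicate block 8 were lower and 3 higher, where the background was 16.0% lower and 16.3% higher. In replicates 3 to 5 alone 9 were lower and 7 higher, against 26.6% and 26.2% of tested genes. In replicates 1 and 2 alone 2 were lower and 0 higher, against 2.04% and 3.09%. The remaining 3, the cytosolic dehydrogenase Bdh2 and the testis-type SCOT genes Oxct2a and Oxct2b, fell below the filter. Bdh2, named after its values were seen, had 4.32 to 19.3 normalized reads in atrial and 0 to 3.46 in ventricular libraries.

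Dld, the dihydrolipoyl dehydrogenase that completes the complex of Bckdha, Bckdhb and Dbt and also serves pyruvate and 2-oxoglutarate oxidation, was lower in atrial cells. It had 1903, 2551, 3094, 3072 and 3009 normalized reads in atrial and 4048, 4222, 5154, 4809 and 5237 in ventricular libraries, with no overlap. The log2 difference was -0.80 ± 0.16 (limma, adjusted p = 0.00527; 1.72-fold). With it, 3 of the 4 genes of the complex were called lower in atrial cells, against 6.56% of tested genes, and Bckdha was not. Dld is not particular to this complex. The call of Bckdhb was lost when libraries were scaled to equal totals, though not when Rn45s and Lars2 were left out of the totals. Reads of Bckdha may not be told apart from those of B3gnt8, as given above.

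Of 7 genes listed for the breakdown of valine and isoleucine, 4 were lower in atrial cells and none was higher, against 6.56% and 8.12% of tested genes. The list was chosen with earlier results of these data known. The 3 not called were Acadsb, Aldh6a1 and Acad8, the last named to complete the count (-0.13, limma, adjusted p = 0.747). Hsd17b10, the dehydrogenase of the isoleucine branch, had atrial and ventricular means of 254 ± 24.8 and 402 ± 14.0 normalized reads (SD, n = 5), which differed by -0.67 ± 0.10 on the log2 scale (limma, adjusted p = 0.00106). Acat1, the mitochondrial thiolase that splits the product of isoleucine and also that of ketone bodies, averaged 2535 ± 268 and 3857 ± 316 (-0.61 ± 0.11, adjusted p = 0.00327). Acat1 missed the threshold when libraries were scaled to equal totals (-0.54, adjusted p = 0.0944), but passed it with totals scaled without Rn45s and Lars2 (-0.55, limma, adjusted p = 0.00322). Hibadh, which oxidizes the 3-hydroxyisobutyrate that Hibch releases, averaged 388 ± 68.2 and 643 ± 142 (-0.71 ± 0.18, adjusted p = 0.0225). It missed the threshold without atrial replicate 2 (adjusted p = 0.0505) or ventricular replicate 3, 4 or 5 (0.0607, 0.0580 and 0.0596), and with totals scaled without Rn45s and Lars2 (0.0927). Echs1, an enoyl-CoA hydratase of the valine and isoleucine branches and of fatty acid oxidation, was near the threshold (-0.46 ± 0.13, limma, adjusted p = 0.0384). It missed it with equal totals (-0.39, adjusted p = 0.319), without a filter (0.0714), and without atrial replicate 1, 3, 4 or 5 or ventricular replicate 1, 2 or 3 (0.0631 to 0.0953). With totals scaled without Rn45s and Lars2 Echs1 was still called (-0.40, limma, adjusted p = 0.0393).

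Other abundant genes of these branches did not pass the test. Acadsb, the short branched-chain acyl-CoA dehydrogenase, had means of 943 ± 144 for the atria and 884 ± 162 normalized reads for the ventricles (limma, adjusted p = 0.774), and in replicates 3 to 5 alone it was higher in atrial cells (0.16, adjusted p = 0.0169). Aldh6a1, which turns methylmalonate semialdehyde into propionyl-CoA, averaged 549 ± 52.1 and 582 ± 172 (adjusted p = 0.934), with a difference of -0.04 that was 0.03 when libraries were scaled to equal totals. In replicates 3 to 5 alone it was 0.16 (limma, adjusted p = 0.0453). Mmut, methylmalonyl-CoA mutase, averaged 642 ± 151 and 762 ± 300.4 (adjusted p = 0.752). None of 4 genes of the leucine branch and none of 4 of propionyl-CoA passed the test, with medians of -0.26 and -0.22. With the replicate block 1 gene of each was lower in atrial cells, both named after their values were seen and both lower in 5 of 5 pairs. These were Auh of the leucine branch (-0.57, limma, adjusted p = 0.113; 0.0155 with the block) and Mcee of the propionyl-CoA branch (-0.67, adjusted p = 0.0955; 0.00457 with the block).

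Amino acid entry showed the single gene of the list that was higher in atrial cells. Slc3a2, the heavy chain that brings large neutral amino acid transporters to the membrane, had 266, 193, 258, 258 and 254 normalized reads in atrial and 125, 122, 149.96, 178 and 139.6 in ventricular libraries, without overlap. Its log2 difference was 0.78 ± 0.14 (limma, adjusted p = 0.00346; higher in 5 of 5 pairs). Slc7a5 and Slc7a8, light chains that pair with it and are named here after their values were seen, had differences of 0.76 ± 0.28 (adjusted p = 0.101; 0.00549 with the block) and 1.59 ± 0.87 (0.294; 0.0221 with the block). Of the 6 transport genes listed, only Slc3a2 was called, where the background was 8.12% higher. Slc43a2 alone had an estimate below 0 (-0.86, limma, adjusted p = 0.234). Slc7a8 held 0 to 94 reads, and its atrial value was the higher one in 4 of 5 pairs. Epicardial markers (4 of 4), the macrophage marker Csf1r and the endothelial marker Kdr were also called higher in atrial cells. The other macrophage and endothelial markers tested were not called. Whether any of these cell types contribute to the values of the transport genes was not tested.

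None of the 3 further ketone genes tested passed between chambers, with log2 differences from -0.43 to 0.41. Slc16a1, the monocarboxylate transporter MCT1 that carries ketone bodies and lactate, averaged 1817 ± 283 normalized reads for the atria and 2454 ± 376 for the ventricles (SD, n = 5) and did not pass (-0.43 ± 0.14, limma, adjusted p = 0.0651; 0.00296 with the replicate block). Slc16a1 was called without atrial replicate 2 (-0.52, adjusted p = 0.0235) and by DESeq2 (adjusted p = 0.0301).

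**Figure D5:**
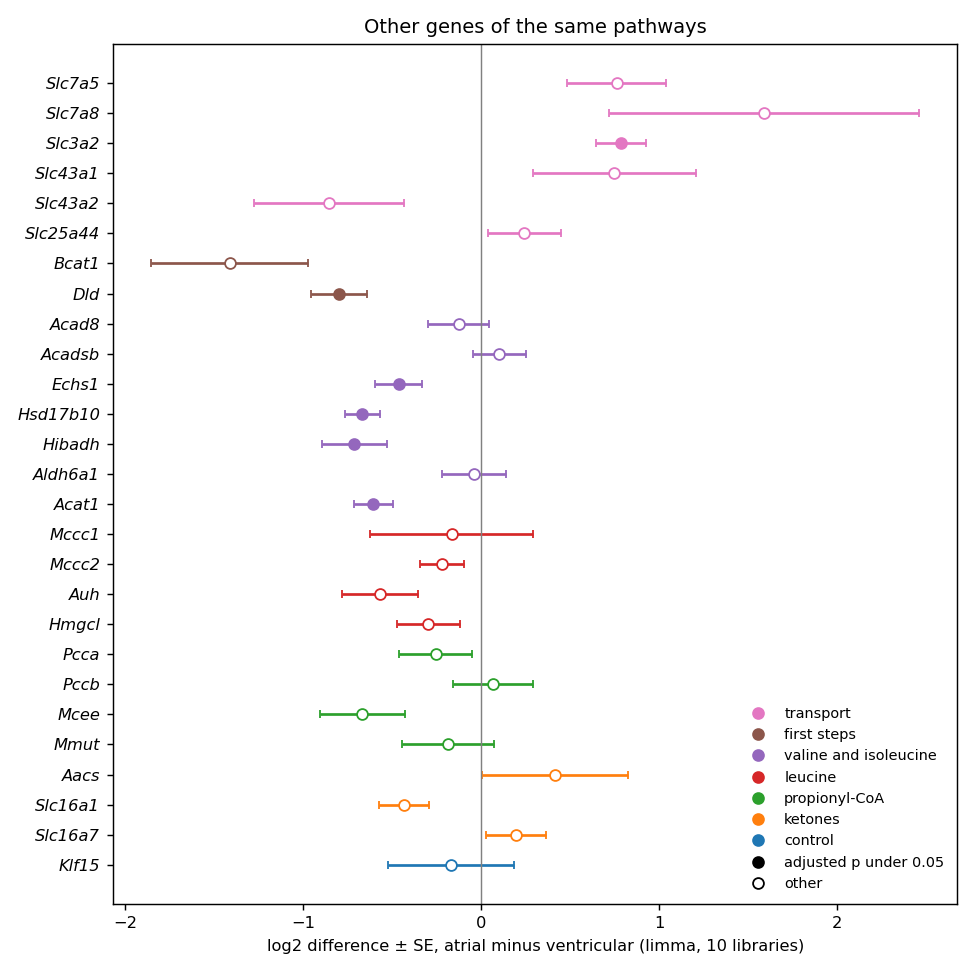
Log2 difference ± SE (horizontal axis, atrial minus ventricular, limma, 10 libraries) of the 27 further genes tested, coloured by step, with filled points for an adjusted p under 0.05. The 5 filled points left of 0 are Dld, Echs1, Hsd17b10, Hibadh and Acat1, and the 1 on the right is Slc3a2.

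The genes whose profile over the 10 libraries was most like that of Dbt and of Hibch, the pair with the smallest adjusted p, were found by Pearson r of log2(normalized reads + 1). For Dbt they were Vcp (0.990), Usp13 (0.990) and Fbxo40 (0.989), and for Hibch Ifit2 (0.993), Fh1 (0.990) and Ptgr2 (0.989). Fh1, the fumarase of the citric acid cycle, had a mean of 1687 normalized reads for the atria and 2602 for the ventricles. These values share chamber, library set and scaling, and they are a description across 10 libraries.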

How the data were processed

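RNA of atrial and ventricular cardiomyocytes was extracted with Trizol and made into ScriptSeq v2 libraries, per the labels' protocols. Trimmomatic, HISAT2 and featureCounts were used on GRCm38 (mm10), per the submitters' processing notes. No source used here gives versions, annotation or strand setting. What the authors deposited is a signal: gene read counts over a DESeq2 size factor of the library, per the file headers. Dividing by the smallest non-zero value gave whole reads for 100% of values within 0.01, and these reads gave the depth. A value of 0 allows up to 3 reads, 1.70 to 10.4 normalized reads depending on the library, for counting error only. Positions and exonic lengths came from GENCODE M21 (GRCm38) and promoters from RefSeq (GRCm38.p6).

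The 12422 genes averaging 10 or more normalized reads were tested with limma 3.58.1 in R 4.3.3 (trend and robust variance, two-sided) on log2(value + 1), which understates changes of low genes, with Benjamini-Hochberg adjustment over all of them. Folds are ratios of group means. Members and gene lists were chosen with earlier results of these data known, and 1 pathway gene is not reported here. The named genes were the 10 members, the other pathway genes that passed the test (up to 8), the 4 others with the highest means, and the 3 genes most like each of the 2 members with the smallest adjusted p. Within a group, libraries differed beyond counting noise (chi-square per degree of freedom 2.22 or more), and p-values measure the spread between libraries, which may be technical. Atrial and ventricular libraries of equal number deviated together from their group means (correlations 0.582, 0.637, 0.623, 0.556 and 0.631, all over 0.1). The deviations include the shift between library sets, so the correlations cannot tell pairing by number from a shared set. The labels state no pairing. The numbers were used as a block all the same. That block is reported beside the results of members and pathway genes where it alters a call. The test was also run on simulated counts that held no library sets and no shared deviation of equal-numbered libraries. That run therefore cannot show how the test performs on these data. Alternatives were other pseudocounts, filters and scalings, a replicate block, a library set term, edgeR 4.0.16, DESeq2 1.42.0 and leaving out libraries, of which leaving out replicate 1 of both chambers was chosen after seeing the data.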

Additional observations from a re-analysis of the deposited data

Results flagged for a closer look

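Among 40 groups of 5 values (20 named genes in 2 chambers), 6 held a library set apart from the other 4 by Dixon's criterion. For independent values of 1 normal distribution, chance alone flags about 1 in 20 groups. These groups mix both library sets and the genes share libraries, so the 6 cannot be read against that rate. Dbt was lowest in ventricular replicate 4, at 315 normalized reads with the next at 384. Ivd was lowest in atrial replicate 2, at 282 with the next at 354, and highest in ventricular replicate 1, at 623 with the next at 435. Slc3a2 was lowest in atrial replicate 2, at 193 with the next at 254. Echs1 was highest in atrial replicate 2, at 913 with the next at 750.3. Aldh6a1 was highest in atrial replicate 1, at 641 with the next at 531. Of these 6 values, 5 belong to replicates 1 and 2, and atrial replicate 2 holds more of them than any other library.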

How the results depend on the processing

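Of the 10 genes, 3 were called under each other pseudocount, filter and left-out library, by edgeR and by DESeq2, and 2 with libraries scaled to equal totals, where Bckdhb was lost. With totals scaled without Rn45s and Lars2, 3 were called. Over all 10 libraries the replicate block changed no call of the 10 genes other than those of Bcat2 and Oxct1. With the block, with library set as a factor, and with edgeR and the block, 5 were called. The same settings called 4017, 3955 and 4554 genes in all against 1824, and 11, 11 and 13 further pathway genes against 6. A mean of at least 100 left 1144 calls in all, since fewer genes were tested, and DESeq2 called 10 pathway genes. Within replicates 1 and 2, 5 of the 10 genes were called with the replicate block, which left 1 residual degree of freedom, and 0 to 2 when 1 library was left out. Within replicates 3 to 5, 4 were called without a filter against 7 (Bcat2, Bckdha and Bdh1 were lost), and 5 to 7 when 1 library was left out. Unequal chamber differences were called for 1 gene with a mean of at least 100, and for 0 to 3 when 1 library was left out. Among the named genes, signs turned for 3 differences that passed no test. Bckdha (0.05) went to -0.046 with edgeR and -0.073 with DESeq2, and ran from -0.13 to 0.286 when 1 library was left out. Ppm1k (-0.12) ran from -0.255 to 0.11 when 1 library was left out, and was 0.083 without replicate 1 of both chambers. Aldh6a1 (-0.04) was 0.026 and 0.016 with equal totals (all genes, and without Rn45s and Lars2), -0.13 to 0.11 when 1 library was left out, and 0.049 without replicate 1 of both chambers. The cause of these changes was not tested. Equal totals moved the share of calls toward atrial cells from 55.3% to 65.4%. Over the named genes and these settings, 397 values kept direction and side of the threshold, 17 fell short of it, 11 newly passed and 14 turned sign. The 10 to 56 reads of Bdh1 limit what its values can show, and the depth of replicates 1 and 2 limits all genes there.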

Other observations

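Bcat1, the cytosolic branched-chain aminotransferase, and Slc43a2, a carrier of large neutral amino acids, were singled out after their values had been seen. Bcat1 had 26.2, 33.1, 11.4, 8.25 and 9.01 normalized reads in atrial replicates 1 to 5 and 31.1, 21.9, 50.2, 56.8 and 64.2 in ventricular replicates 1 to 5. The groups overlapped in replicates 1 and 2 and were far apart in replicates 3 to 5, where ventricular cells had 5.98 times the atrial mean. The chamber difference of 0.17 ± 0.51 for replicates 1 and 2 and that of -2.47 ± 0.20 for replicates 3 to 5 were themselves called unequal (2.63 ± 0.38, limma interaction term, adjusted p = 0.00444). Slc43a2 was at 37.8 and 30.4 in atrial and ventricular replicates 1 and 2, and at 10.6 and 34.0 in replicates 3 to 5 (means; 1.86 ± 0.46 between the sets, adjusted p = 0.0438). Bcat2, the mitochondrial enzyme that catalyses the same reaction as Bcat1, had a difference between the sets of -0.39 ± 0.19, which was not called (adjusted p = 0.271). Bcat1 rests on 9 reads in each of ventricular replicates 1 and 2. Of the 6 fibroblast and 4 smooth muscle markers, 5 also had chamber differences called unequal between the sets in the same direction, against 5.21% of tested genes called in either direction. These were Pdgfra (1.99, limma interaction term, adjusted p = 0.00363), Col1a1 (1.80, 0.0202), Acta2 (1.65, 0.00194), Tagln (1.76, 0.0108) and Cnn1 (0.78, 0.0211). Unlike Bcat1, Cnn1 was higher in atrial cells in both sets (2.23 and 1.45). The chamber markers Myl7 (-2.02, limma interaction term, adjusted p = 0.00622) and Myl3 (-1.94, 6.34e-04) were called unequal in the other direction. The part of any of these cell types in the values of Bcat1 and Slc43a2 was not tested.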
